A study of Mus musculus with 9 samples.

Results

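RNA of whole lung from wild-type BALB/c mice was compared between animals given fine particulate matter (PM2.5) repeatedly and animals given phosphate-buffered saline (PBS). The long-term PM2.5 mice received 10 mg/kg by the intranasal route 6 times, once every 3 days, and the controls are labelled as exposed long-term to PBS. Each group had 3 libraries, which makes 6 of the 9 libraries of the series. The other 3 came from mice given the same dose 1 time. Levels are in TPM, a share of each library's transcripts that is scaled for transcript length, and a gene entered the comparison at 1 TPM or more in at least 3 of the 6 libraries, which 13866 of 18875 listed genes met. The labels give no other genetic change and name neither the time from the last dose to collection nor the number of PBS doses. They do not say that each library came from a separate mouse, so p-values measure the spread between these libraries, which may be in part technical.

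Inhaled particles land on the airway and alveolar lining, where mucus and beating cilia carry them out and alveolar macrophages take them up. Macrophages break particles down in lysosomes and release chemokines that recruit further leukocytes. Metals and organic compounds on particles can generate oxidants, against which the transcription factor Nrf2 induces glutathione and thioredoxin genes. Secretory and ciliated cells of the airway are renewed from basal and club cells, and alveolar type 2 cells make surfactant and renew the flat type 1 cells.

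The deposited TPM values keep no read depth, so counting error is unknown and a difference is one of relative abundance. Differences are given as long-term PM2.5 minus PBS in log2(TPM + 1), which understates the change of low genes, with the standard error from limma (n = 3 per group). Adjusted p-values are from limma with Benjamini-Hochberg adjustment over all 13866 genes, and a gene is said to have risen or fallen at an adjusted p under 0.05. Libraries within a group correlated at a Spearman's rho of 0.9874 to 0.9930 over genes and libraries of different groups at 0.9598 to 0.9751. The lung transcripts Sftpc and Scgb1a1 were high in all 6, with values below. The first principal component held 70.4% of the variance and separated the groups. Transcript length moved with the groups: the excess of long over short transcripts lay between -0.03 and 0.02 log2 in the PBS libraries and between -0.15 and -0.11 in the long-term libraries. The part of length in the results below was tested only by the length and GC correction. A few genes on chromosome 14 split the libraries across the groups: Ang4 was listed at 8.3, 9.12 and 0 TPM with PBS and at 0, 0 and 13.6 after PM2.5, a pattern that the closing section gives in full. The labels give 1 strain for all libraries, and whether the animals were of 1 genetic source was not tested.

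After repeated PM2.5, 2473 genes rose (17.8% of those tested) and 1379 fell (9.95%), together 27.8%. The increases were larger than the decreases: 544 genes rose and 23 fell by at least 1 log2. The groups did not overlap for 5996 tested genes (43.2%), among them 3814 of the 3852 changed genes. The median difference of all tested genes was 0.03. Falling genes made up 35.8% of the changed genes here, but 55.1% after quantile normalization (2096 rose, 2574 fell) and 58.9% after correction for transcript length and GC content (2200 rose, 3158 fell). With the 3 short-term libraries also in the fit, 1321 genes rose and 242 fell, so the falling share was 15.5%. No gene that had changed was called in the opposite direction under any of the 16 alternatives.

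**Figure D1:**
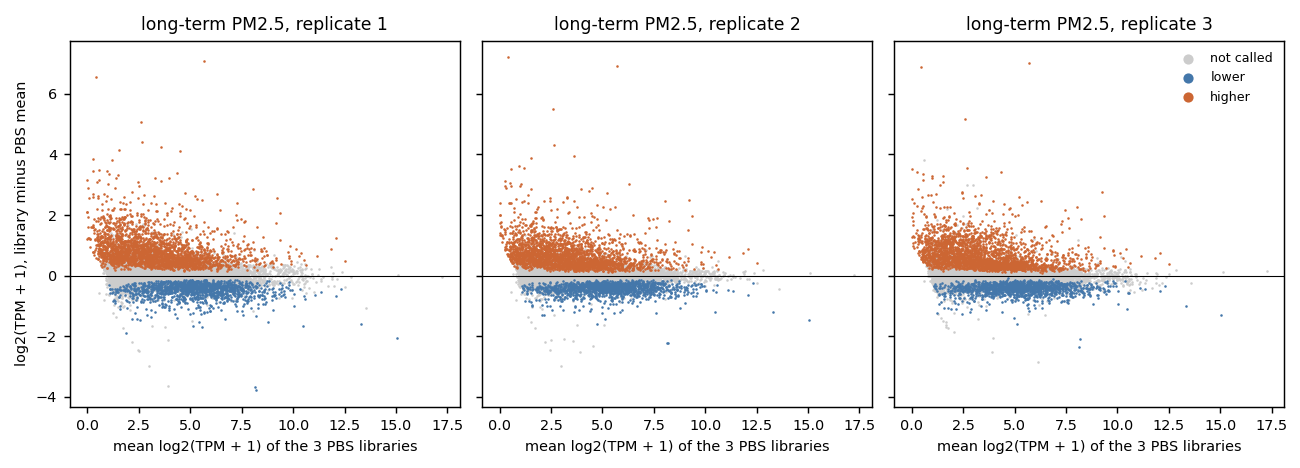
Each panel plots 1 long-term PM2.5 library, with the mean log2(TPM + 1) of the 3 PBS libraries on the horizontal axis and the library minus that mean on the vertical axis, 1 point per tested gene. Genes that rose and genes that fell lie on opposite sides of 0 in all 3 libraries, and the rising genes reach farther from 0.

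The 3 long-term libraries were not equally strong. Replicate 1 held the highest of the 3 long-term values in 60.3% of the genes that rose, and also in 58.8% of the genes that were not called. Its part in the individual results is given below wherever leaving it out ends a call.

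The largest rise was in Retnla, which encodes the secreted protein RELM-alpha made by alternatively activated macrophages and airway epithelium. It stood at 45.9, 60.7 and 46.1 TPM in the PBS libraries and at 7001, 6278 and 6709 TPM after PM2.5, a difference of 7.01 ± 0.11 (adjusted p = 3.73e-09). Every treated library was far above every control. Clca1, a goblet cell protein secreted with mucus, went from 0.24, 0.26 and 0.55 TPM to 126, 197 and 158 TPM (6.89 ± 0.16, adjusted p = 2.89e-08). Mmp12, the macrophage elastase, went from 4.82, 5.43 and 4.87 TPM to 201, 272 and 218 TPM (5.25 ± 0.11, adjusted p = 2.29e-08). These 3 genes were low in the controls and high in each of the treated libraries.

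The next largest rises were in Gpnmb, a lysosomal glycoprotein of lipid-loaded macrophages (4.09 ± 0.21), the collagen-degrading cathepsin Ctsk (3.80 ± 0.23) and the chemokine Ccl8 (3.77 ± 0.26). Gp2 (3.46 ± 0.18), Slc26a4, the anion exchanger pendrin (3.46 ± 0.14), the neutrophil chemokine Cxcl3 (3.36 ± 0.31) and Speer4c (3.34 ± 0.15) completed the 10. Speer4c belongs to a family of close copies among which reads may be shared. By amount rather than ratio, Lyz2, lysozyme of macrophages and type 2 cells, gained most after Retnla, from 4145, 4452 and 4482 TPM to 10248, 8041 and 7332 TPM. Scgb3a1, a secretoglobin of the larger airways, rose from 389, 622 and 884 TPM to 3565, 3384 and 4085 TPM. Both of these abundant transcripts were higher in all 3 treated libraries than in any control.

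The largest falls were in the stress chaperone genes Hspa1a (-2.75 ± 0.34) and Hspa1b (-2.70 ± 0.39), followed by haemoglobin Hba-a1 (-1.60 ± 0.28). Hamp, the iron hormone hepcidin, fell from 30.1, 44.1 and 28.6 TPM to 9.96, 11.9 and 10.4 TPM (-1.56 ± 0.15). Pon1, a circulating esterase, fell from 32.0, 33.9 and 25.9 TPM to 12.1, 12.3 and 10.9 TPM (-1.30 ± 0.11). Asgr1, a receptor known from liver, was at 5.36, 2.43 and 2.93 TPM and then at 0.65, 0.77 and 1.04 TPM (-1.28 ± 0.22). By amount, after the haemoglobins, Inmt, a methyltransferase of lung fibroblasts, lost most, from 4628, 3918 and 4390.3 TPM to 2713, 2729 and 3040.4 TPM. Ager, the receptor RAGE of alveolar type 1 cells, was at 5527, 4629.7 and 5164 TPM with PBS and at 3735, 4306 and 3978 TPM after PM2.5. Its groups did not overlap, but the call was lost on leaving out any of 5 libraries (adjusted p = 0.0804 to 0.163 without PBS replicates 1 or 3 or long-term replicates 1, 2 or 3).

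**Figure D2:**
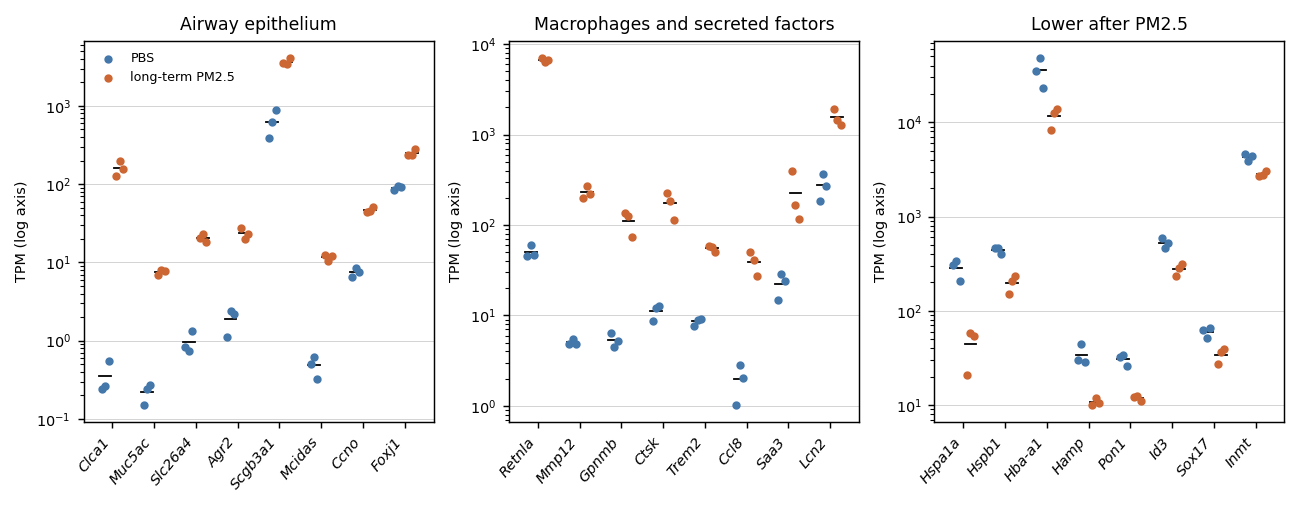
Points are the TPM of the 3 PBS and the 3 long-term PM2.5 libraries on a log axis and black bars are group means. The genes are a chosen set of those that rose and those that fell, and not the largest changes in order. The 2 groups of points are apart for every gene shown, by the widest gap for Retnla and Clca1.

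Genes of mucus production rose. Of 20 listed goblet cell and mucus genes, 16 were tested, and of these 14 rose and 1 fell, with a median difference of 2.22 against 0.03 for all genes. Muc5ac, the gel-forming mucin that is made in small amounts in unchallenged mouse airways, was at 0.15, 0.24 and 0.27 TPM with PBS and at 6.81, 8.08 and 7.79 TPM after PM2.5 (2.81 ± 0.12, adjusted p = 1.80e-06). Muc5ac and Speer4c were the 2 genes found to go from at most 0.5 TPM in every control to at least 5 TPM in every treated library. None was found to do the reverse. The search covered changed genes whose groups did not overlap, leaving out predicted, pseudogene and antigen receptor names. Agr2, the disulfide isomerase needed to fold mucins, rose from 1.11, 2.36 and 2.22 TPM to 27.5, 19.8 and 23.2 TPM (3.10 ± 0.19). Muc5b, the mucin that is needed for routine clearance, rose from 3.01, 4.61 and 6.11 TPM to 30.8, 29.0 and 36.1 TPM (2.60 ± 0.19), and Spdef, a transcription factor of goblet cells, by 1.08 ± 0.13. Summed over all 20 listed members, tested or not, the list was at 99.7 to 136 TPM with PBS and at 586 to 684 TPM after PM2.5. The sulfotransferase Sult1d1 fell (-0.56 ± 0.12), though not with all 3 groups in the fit (adjusted p = 0.226).

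Genes of ciliated cell formation rose with the mucus genes. All 25 listed multiciliated cell genes were tested and 23 rose, with a median of 1.05. Early genes of the programme changed most. Mcidas, the nuclear regulator that commits a cell to making many cilia, was at 0.51, 0.62 and 0.32 TPM with PBS and at 12.3, 10.5 and 12.2 TPM after PM2.5 (3.10 ± 0.12, adjusted p = 1.70e-06). Deup1, which builds the structure from which extra centrioles grow, rose from 1.7, 1.4 and 1.61 TPM to 18.1, 15.1 and 19.6 TPM (2.85 ± 0.12). Ccno, a cyclin-like protein of the same step, rose from 6.59, 8.57 and 7.5 TPM to 44.1, 44.7 and 51.6 TPM (2.49 ± 0.11). In each of these 3 genes the lowest treated library was several times the highest control.

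Foxj1, the transcription factor of motile cilia, rose by less, from 85.2, 95.0 and 90.7 TPM to 237, 237 and 283 TPM (1.47 ± 0.09), and Myb, which acts early in the same programme, by 1.79 ± 0.12. The genes not called were Rfx2 (0.28 ± 0.10, adjusted p = 0.0627) and Tppp3 (-0.31 ± 0.13, adjusted p = 0.103). Both passed under some alternatives: Rfx2 as higher with length and GC correction (adjusted p = 0.0157) and without long-term replicate 1 (0.0288), and Tppp3 as lower with quantile normalization (0.04), with length and GC correction (0.0158) and without PBS replicate 2 (0.0266). The summed list moved from 1869 to 2223 TPM with PBS to 2308 to 2810 TPM after PM2.5, a smaller ratio than that of its early regulators.

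Mcidas and Ccno lie on chromosome 13 in GRCm38.p6, at chr13:112993581-113000394 and chr13:112987802-112990778. Their promoters are shown because they are neighbours and among the 3 members with the largest rise. RFX factors bind the X-box of cilia genes, and the part of it that was searched, GTTGCC on either strand, is in capitals. The windows are the 250 bases before an annotated start in RefSeq (GRCm38.p6), printed on the gene's strand, here the plus strand. They are chr13:112993618-112993867 for Mcidas and chr13:112987552-112987801 for Ccno. The Mcidas window precedes a start inside the gene span given above, so it lies within that span, while the Ccno window ends just before its gene.
Mcidas: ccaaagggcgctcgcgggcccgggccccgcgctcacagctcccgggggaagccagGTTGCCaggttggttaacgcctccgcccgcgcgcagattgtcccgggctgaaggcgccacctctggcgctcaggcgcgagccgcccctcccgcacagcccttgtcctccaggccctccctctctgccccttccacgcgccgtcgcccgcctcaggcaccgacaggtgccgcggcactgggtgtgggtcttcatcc
Ccno: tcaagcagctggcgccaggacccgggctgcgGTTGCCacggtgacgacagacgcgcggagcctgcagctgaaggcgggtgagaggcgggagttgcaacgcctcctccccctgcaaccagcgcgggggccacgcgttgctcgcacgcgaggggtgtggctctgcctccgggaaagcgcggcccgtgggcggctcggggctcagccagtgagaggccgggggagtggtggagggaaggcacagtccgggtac
Each window holds 1 match. Of the 21 listed genes with a window, 10 (47.6%) had a match in at least 1 window, against 12.7% of 11043 tested genes with a window and 10.4% of all 32851 windows. A match is a run of letters and was not tested as a binding site.

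Club cell genes rose in part. All 13 were tested, and 7 rose and 1 fell (53.8% and 7.69%, against 17.8% and 9.95% of all tested genes). The median was 0.42, and with all 3 groups in the fit 3 rose and none fell. Scgb1a1, the main club cell secretoglobin, was at 147044, 180663 and 144212 TPM with PBS and 150190.0, 157373 and 173402 TPM after PM2.5 and was not called (0.03 ± 0.23, adjusted p = 0.931). The related Scgb3a1 rose by 2.61 ± 0.24 and Scgb3a2 by 0.65 ± 0.13. Cyp2f2, the cytochrome P450 that marks mouse club cells, fell from 2519.6, 2527 and 2703 TPM to 1758, 1818 and 1894 TPM (-0.50 ± 0.09, adjusted p = 0.00294; 0.142 with all 3 groups in the fit).

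In the alveoli, markers of type 1 and type 2 cells moved apart. Of 14 type 1 genes, all tested, 8 fell and none rose (median -0.34). Hopx, a regulator that marks type 1 cells, fell from 1115, 986 and 1072 TPM to 693, 758 and 748 TPM (-0.53 ± 0.08, adjusted p = 0.00192), as did Rtkn2 (-0.65 ± 0.12). The number that fell was small under several alternatives: 1 with all 3 groups in the fit, 4 without PBS replicate 1 and without long-term replicate 3 and 5 without PBS replicate 3. Of 17 surfactant and type 2 cell genes, all tested, 13 rose and none fell (median 0.37). Here too the count depended on the libraries: 5 with all 3 groups in the fit, 7 without PBS replicate 1 and 8 without long-term replicate 1.

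Among the type 2 genes, Sftpd, the surfactant collectin that binds inhaled particles and microbes, was at 818, 834 and 1157 TPM with PBS and 1816, 1790.2 and 1494 TPM after PM2.5 (0.87 ± 0.14). The desaturase Scd1, which makes fatty acids for surfactant lipids, rose from 243, 385 and 285 TPM to 902, 1048 and 1100.3 TPM (1.76 ± 0.16). Sftpc, the hydrophobic surfactant protein that defines the cell type, was at 35226, 35731 and 35355 TPM and 36276, 37806 and 38597 TPM and was not called (0.08 ± 0.15, adjusted p = 0.724). The type 2 list also holds Lyz2, which macrophages share, and the macrophage lists rose in the same libraries.

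Genes of injured or regenerating epithelium were mostly higher. Of 18 listed, 13 were tested, 8 rose and 1 fell (median 0.57), with 5 rising on leaving out long-term replicate 1 and 5 with all 3 groups. Areg, a growth factor for epithelium, rose from 4.52, 3.34 and 2.3 TPM to 11.5, 11.0 and 12.6 TPM (1.56 ± 0.17), and the tight junction gene Cldn4 from 3.22, 2.43 and 4.42 TPM to 7.96, 7.66 and 8.44 TPM (1.07 ± 0.16). The basal cell markers Krt5, Krt14, Krt17 and Trp63 were below the filter on low values.

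Macrophage genes rose. Of 26 listed genes of lipid-laden macrophages and lysosomes, all tested, 22 rose and 1 fell (median 1.12). Gpnmb rose from 6.41, 4.5 and 5.25 TPM to 135, 124 and 73.2 TPM, and Trem2, a lipid-sensing receptor, from 7.73, 8.97 and 9.08 TPM to 58.3, 57.0 and 49.9 TPM (2.55 ± 0.09). Ctsk rose from 8.67, 12.2 and 12.8 TPM to 226, 184 and 113 TPM and the lysosomal protease Ctsd from 561, 569 and 570.1 TPM to 1906, 1616 and 1362 TPM (1.51 ± 0.12). None of these groups overlapped. The member that fell was the scavenger receptor Cd36 (-0.32 ± 0.09, adjusted p = 0.0208), which endothelium also expresses; its adjusted p was 0.0615 to 0.0932 without PBS replicate 3 or long-term replicates 2 or 3.

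Among 20 alveolar macrophage genes, all tested, 14 rose and 1 fell (median 0.80), or 10 and 1 with all 3 groups in the fit. Marco, the scavenger receptor for unopsonised particles, rose from 5.58, 7.69 and 2.06 TPM to 42.1, 24.3 and 32.0 TPM (2.56 ± 0.34, adjusted p = 7.46e-04). The integrin Itgax rose from 19.9, 23.5 and 21.6 TPM to 94.6, 87.7 and 69.3 TPM (1.90 ± 0.12), and the lectin Siglecf, a marker of resident alveolar macrophages and of eosinophils, from 8.14, 9.22 and 7.91 TPM to 19.2, 18.4 and 15.7 TPM (0.99 ± 0.10). Chil3 rose by 2.73 ± 0.27, with reads that its near copy Chil4 may share. Other identity genes of resident cells were not called, among them Car4 (-0.16 ± 0.07, adjusted p = 0.118) and Fabp4 (-0.41 ± 0.28, adjusted p = 0.314). Car4 is also a member of the endothelial list and Fabp4 of the fat tissue list. Car4 was called lower with quantile normalization (adjusted p = 0.0429) and with length and GC correction (0.00283), where its difference was -0.35. Fabp1 fell by 1.25 on the log2 scale (adjusted p = 0.0139), but its adjusted p was 0.0549 to 0.0686 without PBS replicate 1 or long-term replicate 1.

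Monocyte and interstitial macrophage genes also rose, 12 of 20 tested, and none fell (median 0.78). With all 3 groups in the fit 8 rose. The complement genes C1qa, C1qb and C1qc, made by interstitial macrophages, rose together by 1.30, 1.38 and 1.27. Cd14, the lipopolysaccharide co-receptor, rose from 18.1, 26.9 and 32.2 TPM to 94.5, 77.6 and 87.2 TPM (1.74 ± 0.18), and Ms4a7 by 1.94 ± 0.23. In bulk tissue, more or fewer cells of a type and more or less RNA per cell cannot be told apart, for these lists and all that follow.

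Retnla lies at chr16:48842609-48844461. Its promoter is shown because it is the gene that rose most and a known target of STAT6, the transcription factor of interleukin-4 and interleukin-13 signalling. The searched motif, TTC and GAA with 4 bases of any kind between them, is in capitals in the 250 bases before the start (plus strand, chr16:48842359-48842608).
Retnla: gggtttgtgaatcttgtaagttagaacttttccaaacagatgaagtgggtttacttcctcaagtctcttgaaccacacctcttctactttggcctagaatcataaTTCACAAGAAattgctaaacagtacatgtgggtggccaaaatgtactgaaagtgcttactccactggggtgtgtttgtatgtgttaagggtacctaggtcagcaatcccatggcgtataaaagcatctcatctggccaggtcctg
The window holds 1 match, 145 bases before the start. In the type 2 immunity list 3 of 14 genes with a window had a match (21.4%), against 5.47% of tested genes and 5.85% of all windows. Clca1 and Foxj1 had no window in the table.

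Many genes of type 2 immunity rose, while the cytokines that drive it were below the filter on low values. Of 25 listed, 20 were tested, 17 rose and 1 fell (median 1.12), or 12 and none with all 3 groups in the fit. Retnla, Clca1, Muc5ac, Chil3 and Chil4 (3.03 ± 0.24) are members, so this list overlaps those above. Ccl8 rose from 1.02, 2.81 and 2.05 TPM to 50.1, 40.9 and 27.1 TPM, and the lipoxygenase Alox15 by 1.18 ± 0.23. Il33, an alarmin of epithelial and stromal cells, was at 37.5, 45.1 and 31.5 TPM with PBS and 67.0, 60.1 and 81.9 TPM after PM2.5 (0.86 ± 0.14, adjusted p = 0.00239; 0.182 with all 3 groups). These cytokines were Il4, Il5 and Il13. Il13 was at 0.14, 0 and 0.07 TPM with PBS and 0.27, 0.27 and 0.2 TPM after PM2.5, and Il5 was at most 0.15 TPM in any of the 6 libraries. The member that fell was Postn (-0.34 ± 0.08), a matrix protein, which all 3 groups in the fit did not call (adjusted p = 0.649).

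Chemokine genes rose in number. Of 31 listed, 29 were tested, 21 rose and 1 fell (median 1.11), or 15 and none with all 3 groups in the fit. Leaving out 1 library gave 15 to 21 rising genes. Cxcl3 rose from 0.49, 1.81 and 1.79 TPM to 30.6, 25.8 and 13.8 TPM, Ccl9 from 4.44, 6.53 and 6.74 TPM to 42.6, 30.6 and 28.4 TPM (2.33 ± 0.17) and the mucosal chemokine Cxcl17 from 37.4, 55.3 and 50.8 TPM to 272, 229.9 and 259.5 TPM (2.40 ± 0.14). Ccl3 rose by 2.18 ± 0.20 and Ccl22, which attracts T helper 2 and regulatory T cells, by 1.57 ± 0.14. Ccl21a, a lymphoid homing chemokine encoded by near-identical copies, fell (-0.37 ± 0.09; adjusted p = 0.194 with all 3 groups).

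Of 31 listed cytokine genes 17 were tested, 6 rose and 1 fell (35.3% and 5.88%, against 17.8% and 9.95% of all tested genes; median 0.36). Il1rn, the interleukin-1 receptor antagonist, rose from 2.42, 3.59 and 3.87 TPM to 22.0, 14.5 and 12.5 TPM (1.99 ± 0.20). Tnf was at 1.08, 1.86 and 1.18 TPM with PBS and 5.98, 3.27 and 2.28 TPM after PM2.5 (0.97 ± 0.25, adjusted p = 0.0191), and the adjusted p was 0.0697 without PBS replicate 1. Il1b was at 17.8, 21.6 and 31.2 TPM and 43.1, 30.7 and 30.8 TPM and did not pass (adjusted p = 0.0586; 0.0068 without PBS replicate 3). The others that rose were Areg, Il33, Lif (0.63 ± 0.13) and Il34 (0.36 ± 0.10), and Tslp fell (-0.39 ± 0.11). The adjusted p of Il34 was 0.0579 to 0.0696 without PBS replicate 3 or long-term replicates 1 or 2, and that of Tslp 0.0678 to 0.0834 without PBS replicates 2 or 3 or long-term replicates 1 or 3. Il6 was below the filter, at 0, 0.07 and 0.14 TPM with PBS and 1.23, 0.64 and 0.28 TPM after PM2.5, and Il17a was listed at 0 in 5 of the 6 libraries. Tgfb1 was not called (0.03 ± 0.09, adjusted p = 0.86).

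Of 20 listed neutrophil genes 17 were tested, and 5 of these rose (29.4%, against 17.8% of all tested genes; median 0.11). S100a8 was at 70.2, 88.6 and 143 TPM with PBS and 159, 77.6 and 91.2 TPM after PM2.5 and S100a9 at 164, 165 and 269.8 TPM and 227, 143 and 166 TPM, and the groups of both overlapped. Ly6g was not called either (-0.30 ± 0.19, adjusted p = 0.29). The 5 that rose were the iron-binding protein Ltf, from 10.7, 17.2 and 38.1 TPM to 213, 141 and 217 TPM (3.21 ± 0.37), Cd177 (2.79 ± 0.21), Retnlg (0.66 ± 0.16), Il1r2 (0.63 ± 0.20) and Hdc (0.54 ± 0.12). Ltf is also secreted by airway glands and epithelium. Retnlg and Il1r2 lost their calls without single libraries, Retnlg with an adjusted p of 0.0501 to 0.0676 without PBS replicate 2 or long-term replicate 1 and Il1r2 with one of 0.0532 to 0.148 without PBS replicates 1 or 2 or long-term replicates 1 or 2. On leaving out PBS replicate 2 or long-term replicate 1, or with all 3 groups in the fit, 3 neutrophil genes rose, and 7 without PBS replicate 3.

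Antigen presentation genes rose in part. Of 22 MHC class II and dendritic cell genes, all tested, 14 rose and none fell (median 0.46), or 7 with all 3 groups in the fit and 9 with quantile normalization. Cd74, the class II invariant chain, rose from 2043, 2310.4 and 2461 TPM to 3572, 3498 and 3552 TPM (0.64 ± 0.10) and H2-Aa by 0.80 ± 0.10. Of 24 tested T cell and cytotoxic lymphocyte genes 7 rose (29.2%, against 17.8% of all tested genes), or 4 with all 3 groups. In the same list 1 fell (4.17%, against 9.95% of all tested genes), and the median was 0.12. Foxp3, the factor of regulatory T cells, was at 0.93, 1.32 and 1.1 TPM with PBS and 2.74, 2.99 and 2.62 TPM after PM2.5 (0.84 ± 0.12), and the receptors Tnfrsf4 (1.04 ± 0.14), Il7r (1.03 ± 0.13) and Pdcd1 (0.76 ± 0.13) rose. Gata3, the member that fell, lost its call in 4 of the 6 omissions of a library (-0.48 ± 0.15; adjusted p = 0.0763 to 0.157 without PBS replicates 1 or 3 or long-term replicates 1 or 3).

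Of 17 tested B cell and plasma cell genes 5 rose (29.4%, against 17.8% of all tested genes). They were Cxcl13 (1.14 ± 0.35), Jchain (1.00 ± 0.22), Fcer2a (0.88 ± 0.22), Cd22 (0.70 ± 0.22) and Sdc1 (0.30 ± 0.07). Cd79a was not called (0.02 ± 0.21, adjusted p = 0.962). Jchain kept its call in all 6 omissions of a library. The adjusted p of Cxcl13 was 0.0687 to 0.127 without PBS replicates 1 or 3 or long-term replicate 1, that of Fcer2a 0.0513 to 0.0657 without PBS replicate 2 or long-term replicate 1, that of Cd22 0.118 to 0.155 without PBS replicates 1 or 2 or long-term replicates 1 or 2 and that of Sdc1 0.0515 without long-term replicate 2. With all 3 groups in the fit 1 of the 17 rose. Of 12 tested mast cell, basophil and eosinophil genes 3 rose and 1 fell (25% and 8.33%, against 17.8% and 9.95% of all tested genes). Those that rose were Alox15, Siglecf and Ccr3 (0.47 ± 0.13), of which macrophages express the first pair, and Gata2 fell (-0.64 ± 0.11). The adjusted p of Ccr3 was 0.063 to 0.0856 without PBS replicates 1, 2 or 3 or long-term replicates 1 or 3. The eosinophil granule gene Epx was below the filter.

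Secreted defence proteins rose strongly. Of 26 acute phase and airway defence genes 23 were tested, 19 rose and none fell (median 1.93). Lcn2, which binds bacterial siderophores, rose from 184, 366 and 272 TPM to 1909, 1453 and 1282 TPM (2.53 ± 0.23) and the chitinase-like Chil1 from 484, 643 and 882 TPM to 2727, 2529 and 2565 TPM (2.0 ± 0.18). Saa3, the serum amyloid made in the lung, was at 14.7, 28.7 and 23.9 TPM and 395, 165 and 115 TPM (3.12 ± 0.40, adjusted p = 5.81e-04), and long-term replicate 1 was the highest. The protease inhibitor Serpina3n rose by 2.86 ± 0.16 and Orm2 by 3.03 ± 0.33, with reads that Orm1 may share. Saa1 and Saa2 were below the filter. Of 23 tested complement genes 15 rose and none fell (median 0.65), or 11 and none with all 3 groups in the fit. Among those that rose were the regulator Cfi (1.48 ± 0.11) and the anaphylatoxin receptor C3ar1 (1.30 ± 0.24).

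Most lipid mediator genes rose. Of 23 tested, 15 rose and 3 fell (median 0.61), or 9 and none with all 3 groups in the fit. Ptgs1, cyclooxygenase 1, rose by 0.90 ± 0.09 and the thromboxane synthase Tbxas1 by 1.02 ± 0.14. The 3 that fell were Ptgis, the prostacyclin synthase of vessels (-0.29 ± 0.09), Ptgds (-0.49 ± 0.14) and Hpgd, which inactivates prostaglandins (-0.36 ± 0.10). None of these decreases held throughout: the adjusted p was 0.0857 to 0.129 without PBS replicates 1 or 2 or long-term replicates 1 or 2 for Ptgis, 0.0732 to 0.0862 without PBS replicates 2 or 3 or long-term replicates 1 or 3 for Ptgds and 0.0611 to 0.0808 without PBS replicate 1 or long-term replicates 1 or 2 for Hpgd.

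The interferon list gave no stable count. Of 26 tested genes 4 rose (15.4%, near the 17.8% of all tested genes), Oas1a (1.36 ± 0.32), Cxcl10 (1.11 ± 0.33), Zbp1 (1.07 ± 0.32) and Ifi204 (0.75 ± 0.23), and Irf1 fell (-0.34 ± 0.10). The number that rose was 12 without long-term replicate 3, 8 without PBS replicate 3 and 1 without any of the other 4 libraries. Cxcl10 was at 0.67, 1.16 and 1.35 TPM with PBS and 6.93, 3.01 and 1.67 TPM after PM2.5, and its treated values differed widely among themselves. Oas1a kept its call in all 6 omissions, but not with robust variances (adjusted p = 0.078). The adjusted p was 0.0695 to 0.119 without PBS replicates 1 or 2 or long-term replicates 1 or 2 for Cxcl10, 0.0524 to 0.113 without PBS replicates 1 or 2 or long-term replicates 1 or 2 for Zbp1, 0.084 to 0.127 without PBS replicates 1 or 2 or long-term replicates 1 or 2 for Ifi204 and 0.073 to 0.121 without PBS replicates 1 or 3 or long-term replicate 1 for Irf1.

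Oxidant defence genes rose in part. Of 33 listed Nrf2 genes, all tested, 17 rose and 4 fell (51.5% and 12.1%, against 17.8% and 9.95% of all tested genes). The median was 0.29, and with all 3 groups in the fit 10 rose and 2 fell. The regulators did not pass: Nfe2l2, which encodes Nrf2, was at 111, 122 and 107 TPM with PBS and 131, 116 and 129 TPM after PM2.5 (0.14 ± 0.08, adjusted p = 0.232), and Keap1, its inhibitor, differed by -0.03 ± 0.08 (adjusted p = 0.788). Nqo1, a quinone reductase and a common readout of Nrf2, was at 3.82, 4.12 and 3.46 TPM and 5.43, 3.8 and 4.57 TPM (adjusted p = 0.254). Gclm, the modifier subunit of glutathione synthesis, differed by -0.04 ± 0.07 (adjusted p = 0.756).

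Other targets rose. Slc7a11, the cystine importer, went from 0.43, 0.38 and 0.52 TPM to 2.75, 2.09 and 1.36 TPM (1.06 ± 0.17), and Gpx2, a glutathione peroxidase of epithelium, from 29.2, 33.4 and 36.9 TPM to 75.6, 68.9 and 61.5 TPM (1.03 ± 0.11). Hmox1, haem oxygenase 1, rose from 37.0, 44.8 and 42.7 TPM to 85.5, 70.0 and 60.4 TPM (0.77 ± 0.13) and glutathione reductase Gsr by 0.63 ± 0.10. Gclc, the catalytic partner of Gclm, rose by 0.73 ± 0.08, Txnrd1 by 0.57 ± 0.08 and Srxn1 by 0.54 ± 0.09, all 3 lost with all 3 groups in the fit (adjusted p = 0.13, 0.0918 and 0.0533). The ferritin light chain Ftl1 rose from 3406, 3933 and 3655 TPM to 6678, 6089.6 and 5444 TPM (0.73 ± 0.12). The 4 that fell were conjugating and hydrolysing enzymes, the glutathione transferases Gsta1 (-0.80 ± 0.15), Gsta2 (-0.79 ± 0.09) and Gstm1 (-0.35 ± 0.09) and the epoxide hydrolase Ephx1 (-0.35 ± 0.07); Gsta1 and Gsta2 are near copies, and the adjusted p of Gstm1 was 0.0518 without long-term replicate 2. The antioxidant motif TGACNNNGC was found in 6 of 28 listed genes with a window (21.4%), against 13.9% of tested genes and 10.2% of all windows.

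Genes of the enzyme with which phagocytes make superoxide rose together. Of the phagocyte NADPH oxidase, Cybb (1.61 ± 0.15), Cyba (0.80 ± 0.08), Ncf1 (0.94 ± 0.11) and Ncf4 (1.06 ± 0.15) rose. The summed level of these 4 was 343, 324 and 365 TPM with PBS and 707, 649 and 584 TPM after PM2.5. Cybb itself, the catalytic subunit, went from 19.3, 23.1 and 23.7 TPM to 88.9, 64.2 and 58.0 TPM. These subunits are phagocyte genes, and the macrophage lists rose in the same libraries. In the whole list of 25 tested genes 9 rose (36%, against 17.8% of all tested genes), or 5 with all 3 groups in the fit. Only Nox4 fell (-0.31 ± 0.09), 4% of the list against 9.95% of all tested genes, and the median was 0.09.

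Of the enzymes that remove superoxide and peroxide, Sod1 was not called (-0.07 ± 0.09, adjusted p = 0.58) nor was catalase, Cat (-0.18 ± 0.07, adjusted p = 0.0809), while mitochondrial Sod2 rose by 0.31 ± 0.07 (adjusted p = 0.122 with all 3 groups). With length and GC correction 8 members of the list fell, Sod1 and Cat among them (adjusted p = 0.0367 and 0.00373). Nox4 was called lower only on leaving out long-term replicate 1 among the 6 omissions, with an adjusted p of 0.0532 to 0.12 without PBS replicates 1, 2 or 3 or long-term replicates 2 or 3.

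**Figure D3:**
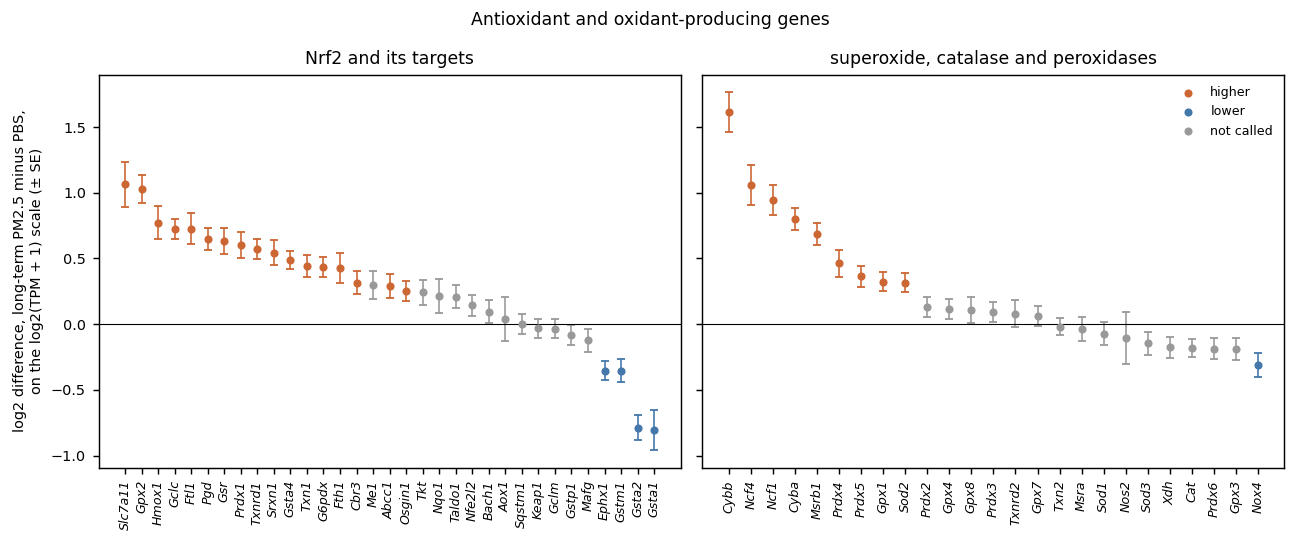
Points are the log2 difference, long-term PM2.5 minus PBS, of each tested gene of the Nrf2 list (left) and of the superoxide, catalase and peroxidase list (right), with bars for 1 SE, coloured by call. Slc7a11, Gpx2 and Hmox1 lie at the upper end on the left with Gsta1 and Gsta2 at the lower end, and Cybb is the highest on the right.

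Of 20 tested enzymes and regulators of foreign compound metabolism 4 rose (20%, near the 17.8% of all tested genes) and 5 fell (25%, against 9.95%; median 0.05), and none fell with all 3 groups in the fit. Cyp1b1, which the aryl hydrocarbon receptor induces, rose from 1.33, 1.87 and 1.93 TPM to 6.13, 5.09 and 5.63 TPM (1.29 ± 0.13, adjusted p = 1.61e-04). Cyp1a1, the classic target of that receptor, was at 31.1, 34.0 and 24.3 TPM and 33.1, 43.6 and 48.0 TPM and missed the threshold (0.46 ± 0.15, adjusted p = 0.0518; 0.0388 without PBS replicate 2 and 0.0224 without long-term replicate 1). Adh7 rose by 0.93 ± 0.16, Cyp2s1 by 0.66 ± 0.12 and Aldh1a7 by 0.64 ± 0.08. Of the falling genes, which were monooxygenases and a carboxylesterase, Fmo2 went from 262, 294 and 217 TPM to 174, 162 and 188 TPM (-0.55 ± 0.11, adjusted p = 0.00632; 0.565 with all 3 groups).

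Metallothioneins rose with the iron storage genes. Of 25 tested metal and iron genes 12 rose and 2 fell (48% and 8%, against 17.8% and 9.95% of all tested genes), with a median of 0.33. Mt1 was at 149, 141 and 159 TPM with PBS and 608, 567 and 491 TPM after PM2.5 (1.88 ± 0.09, adjusted p = 5.66e-06), and Mt2 at 22.2, 28.8 and 26.1 TPM and 177, 134 and 119.7 TPM (2.42 ± 0.14, adjusted p = 1.40e-05). The zinc importer Slc39a2 rose by 1.81 ± 0.23 and the metalloreductase Steap4 by 1.60 ± 0.18. The zinc exporter Slc30a1, like the metallothioneins a target of the metal-sensing factor MTF-1, fell (-0.49 ± 0.10, adjusted p = 0.00558). Ferritin heavy chain Fth1 rose by 0.43 ± 0.11 (adjusted p = 0.0203), but with an adjusted p of 0.0565 to 0.0735 without long-term replicates 1 or 2.

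Mt2 (chr8:94172618-94173567) and Mt1 (chr8:94178883-94180327) are neighbours. The Mt2 promoter is shown for its matches to TGCNCNC, a broad pattern searched for metal response on either strand, where N is any base. They are in capitals in the 250 bases before the start (plus strand, chr8:94172368-94172617).
Mt2: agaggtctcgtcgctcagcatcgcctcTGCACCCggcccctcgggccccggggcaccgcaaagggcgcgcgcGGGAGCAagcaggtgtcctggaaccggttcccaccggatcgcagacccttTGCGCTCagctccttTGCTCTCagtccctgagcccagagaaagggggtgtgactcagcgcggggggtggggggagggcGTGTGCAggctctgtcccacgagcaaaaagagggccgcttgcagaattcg
It holds 5 matches, between 223 and 50 bases before the start, and the Mt1 window, not printed, holds 1. A match need not be a metal response element, and none was tested as a binding site. The Mt1 window lies in part inside the gene span given above. The motif is common: 11 of 18 listed metal genes with a window had it (61.1%), against 56.7% of tested genes and 44.4% of all windows.

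Many cytosolic heat shock genes fell. Of 20 listed, all tested, 11 fell and 1 rose (median -0.35), or 6 and none with all 3 groups in the fit. Hspa1a was at 307, 336 and 209 TPM with PBS and 20.8, 58.8 and 54.0 TPM after PM2.5 (adjusted p = 5.30e-04), and Hspa1b at 312, 371 and 215 TPM and 20.4, 61.1 and 67.4 TPM. The groups did not overlap for either, though the controls ranged widely. The small chaperone Hspb1 fell from 466, 459.8 and 398 TPM to 151, 209 and 232 TPM (-1.18 ± 0.15), as did the cochaperones Dnajb1 (-0.88 ± 0.12) and Bag3 (-0.70 ± 0.10). Hspa4l rose (0.61 ± 0.12). The mitochondrial Hspd1 did not pass (-0.06 ± 0.11, adjusted p = 0.7).

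Hspa1a and Hspa1b lie side by side on chromosome 17, at chr17:34969359-34972156 and chr17:34956429-34959238. Their promoters are shown because the 2 genes fell most and are near copies. Between the windows 247 of 250 bases are identical, and reads of such genes can be shared, so the 2 values are not independent. The heat shock motif GAANNTTC is in capitals (minus strand, chr17:34972157-34972406 and chr17:34959239-34959488).
Hspa1a: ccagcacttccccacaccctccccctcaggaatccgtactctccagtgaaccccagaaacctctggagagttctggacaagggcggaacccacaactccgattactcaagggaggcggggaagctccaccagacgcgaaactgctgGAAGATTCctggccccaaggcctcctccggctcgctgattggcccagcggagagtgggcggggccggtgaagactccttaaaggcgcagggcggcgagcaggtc
Hspa1b: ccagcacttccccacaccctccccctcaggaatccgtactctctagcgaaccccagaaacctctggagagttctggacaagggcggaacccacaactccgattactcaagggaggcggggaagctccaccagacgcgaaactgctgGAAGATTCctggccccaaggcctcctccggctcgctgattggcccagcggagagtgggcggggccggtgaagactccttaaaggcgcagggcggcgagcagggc
Each has 1 match, 104 bases before the start. Of 15 listed heat shock genes with a window 7 had a match (46.7%), against 6.03% of tested genes and 6.69% of all windows.

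Few chaperone genes of the endoplasmic reticulum were called, 8% in each direction, while 17.8% of all tested genes rose and 9.95% fell. Of 25 tested genes 2 rose, Sdf2l1 (0.58 ± 0.10) and Pdia6 (0.34 ± 0.07), and 2 fell, Ddit3 (-0.53 ± 0.09) and Dnajb9 (-0.31 ± 0.07), with a median of 0.04. Hspa5, the central chaperone of that compartment, differed by 0.04 ± 0.09 (adjusted p = 0.797).

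Of 22 tested immediate early genes 5 rose (22.7%, near the 17.8% of all tested genes) and 4 fell (18.2%, against 9.95%; median 0.15). Egr2, a factor of alternatively activated macrophages, rose from 1.78, 2.27 and 2.53 TPM to 8.18, 8.21 and 6.15 TPM (1.41 ± 0.14) and Fos by 0.90 ± 0.16, while Klf4 (-0.84 ± 0.20), Jun (-0.75 ± 0.13) and Nr4a2 (-0.48 ± 0.11) fell. The other calls were lost without single libraries: the adjusted p was 0.0959 to 0.125 without PBS replicates 1 or 2 or long-term replicates 1 or 2 for Egr3, 0.0524 to 0.114 without PBS replicate 2 or long-term replicates 1, 2 or 3 for Atf3, 0.0558 to 0.0616 without PBS replicate 1 or long-term replicate 2 for Zfp36 and 0.053 to 0.175 without PBS replicates 1 or 3 or long-term replicates 1, 2 or 3 for Jund. The number that rose was 2 without long-term replicate 2, 3 without PBS replicates 1 or 2 or long-term replicate 1, and 8 without long-term replicate 3.

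Of 18 tested clock genes 3 rose and 3 fell (16.7% each, against 17.8% and 9.95% of all tested genes). Those that rose were the repressors Bhlhe41, from 3.6, 3.57 and 3.34 TPM to 14.2, 12.7 and 10.3 TPM (1.56 ± 0.12), and Bhlhe40 (0.99 ± 0.09), and Dbp, a clock output gene (1.05 ± 0.13). The core genes Arntl, Clock and Cry1 fell (-0.33 ± 0.10, -0.34 ± 0.09 and -0.32 ± 0.09), but none of these 3 calls held: the adjusted p was 0.058 to 0.12 without PBS replicate 1 or long-term replicates 1, 2 or 3 for Arntl, 0.0667 to 0.101 without PBS replicates 1 or 2 or long-term replicates 2 or 3 for Clock and 0.0531 to 0.107 without PBS replicates 1 or 3 or long-term replicates 1 or 2 for Cry1. With quantile normalization 7 clock genes fell.

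Of 19 tested p53 targets 4 rose (21.1%, near the 17.8% of all tested genes; median 0.10), or 1 with all 3 groups. They were Perp (0.76 ± 0.09), Gadd45g (0.60 ± 0.09), Cdkn1a (0.43 ± 0.11) and Trp53inp1 (0.41 ± 0.11). The adjusted p was 0.0568 to 0.0603 without PBS replicate 1 or long-term replicate 1 for Cdkn1a and 0.0587 to 0.079 without PBS replicate 1 or long-term replicate 1 for Trp53inp1. Mdm2, the feedback target of p53, was not called (0.11 ± 0.08, adjusted p = 0.349). Of 13 tested glucocorticoid response genes, with a median of -0.17, Lcn2 and Fkbp5 rose and Klf9, Cdkn1c and Zbtb16 fell. These were 15.4% and 23.1%, against 17.8% and 9.95% of all tested genes. Apart from Lcn2, these calls did not hold throughout, with adjusted p-values of 0.0571 to 0.0661 without PBS replicate 3 or long-term replicate 1 for Fkbp5, 0.089 to 0.121 without PBS replicates 1 or 2 or long-term replicates 1 or 2 for Klf9, 0.0867 to 0.129 without PBS replicates 1 or 3 or long-term replicates 1 or 3 for Cdkn1c and 0.0569 to 0.0697 without long-term replicates 1, 2 or 3 for Zbtb16.

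Cell division genes rose. Of 30 listed, 29 were tested, 25 rose and none fell (median 1.24). Ccnb1, the mitotic cyclin, was at 0.9, 0.94 and 1.22 TPM with PBS and 8.18, 5.92 and 5.08 TPM after PM2.5 (1.85 ± 0.16, adjusted p = 8.33e-05), and its kinase Cdk1 at 0.88, 1.62 and 1.23 TPM and 7.28, 5.22 and 5.04 TPM (1.61 ± 0.16). Ube2c rose by 1.70 ± 0.19 and Cdc20 by 1.62 ± 0.11, both needed to leave mitosis. The replication genes that did not pass were Mcm4 (0.17 ± 0.09), Mcm6 (0.37 ± 0.24), Pcna (0.22 ± 0.09) and E2f1 (0.15 ± 0.09). In sterol and fatty acid synthesis, 13 of 27 tested genes rose and none fell (median 0.32), or 6 with all 3 groups in the fit. Mvd (0.98 ± 0.11), Dhcr7 (0.96 ± 0.11) and Fdps (0.93 ± 0.11), enzymes of cholesterol synthesis, rose by nearly equal amounts.

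Of 35 collagen and elastic matrix genes, all tested, 9 rose and 5 fell (25.7% and 14.3%, not far from the 17.8% and 9.95% of all tested genes; median 0.06), but 1 rose and none fell with all 3 groups in the fit. Col1a1, of fibrillar collagen I, was at 131, 119.9 and 138 TPM with PBS and 203, 236 and 189 TPM after PM2.5 (0.68 ± 0.10, adjusted p = 0.00107). Col3a1 rose from 222, 249.9 and 189.7 TPM to 416, 394 and 318 TPM (0.77 ± 0.13, adjusted p = 0.00227; 0.0819 with all 3 groups), and elastin, Eln, by 0.62 ± 0.10 (adjusted p = 0.0702 with all 3 groups). Fn1, fibronectin, was at 173, 121 and 141 TPM and 231, 194 and 152 TPM and did not pass (adjusted p = 0.103; 0.0215 without long-term replicate 3 and 0.0487 with length and GC correction). The 5 that fell were the basement membrane collagens Col4a2 (-0.29 ± 0.09) and Col4a3 (-0.54 ± 0.10), Col12a1 (-0.63 ± 0.11), Fbln5 (-0.25 ± 0.08) and Postn. The adjusted p of Col4a2 was 0.0987 to 0.151 without PBS replicates 1 or 3 or long-term replicates 1 or 3 and that of Fbln5 0.0574 to 0.156 without PBS replicates 1, 2 or 3 or long-term replicates 2 or 3. The number that fell was 3 without PBS replicate 1, PBS replicate 3 or long-term replicate 3, 9 with quantile normalization and 8 with length and GC correction.

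Matrix proteases and their inhibitors rose in part. Of 26 listed, 23 were tested, 11 rose and 2 fell (47.8% and 8.7%, against 17.8% and 9.95% of all tested genes). The median was 0.31, and with all 3 groups in the fit 7 rose and none fell. Timp1, an inducible protease inhibitor, was at 7.05, 10.9 and 8.74 TPM with PBS and 90.2, 56.8 and 49.4 TPM after PM2.5 (2.72 ± 0.21, adjusted p = 5.51e-05). Mmp19 rose by 1.59 ± 0.11 and the membrane protease Adam8 by 1.79 ± 0.10, beside Mmp12 and Ctsk. The inhibitors that fell were Timp2 (-0.23 ± 0.07) and Timp3 (-0.36 ± 0.08), of which Timp2 lost its call in each of the 6 omissions of a library (adjusted p = 0.0596 to 0.131 without PBS replicates 1, 2 or 3 or long-term replicates 1, 2 or 3).

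Several genes of the bone morphogenetic protein (BMP) branch fell. Of 35 TGF-beta and BMP genes 33 were tested, 3 rose and 11 fell (9.09% and 33.3%, against 17.8% and 9.95% of all tested genes). The median was -0.20, and with all 3 groups in the fit 1 rose and 7 fell. Id3 was at 591, 462 and 528 TPM with PBS and 237, 283 and 312 TPM after PM2.5 (-0.93 ± 0.12, adjusted p = 7.19e-04), and Id1 at 351, 282 and 306 TPM and 161, 189 and 213 TPM (-0.74 ± 0.12). Both are direct targets of BMP receptors. The receptors and cofactors Bmpr2 (-0.44 ± 0.08), Acvrl1 (-0.54 ± 0.09) and Eng (-0.53 ± 0.08), known from endothelium, fell, as did Ltbp4 (-0.66 ± 0.11), which anchors latent TGF-beta to elastic fibres. Of those that rose, Inhba, the activin A subunit, went from 0.41, 0.39 and 0.26 TPM to 3.67, 2.1 and 2.3 TPM (1.42 ± 0.17). Thbs1 rose by 0.92 ± 0.21 and Tgfbr1 by 0.39 ± 0.11, with adjusted p-values of 0.0592 without long-term replicate 1 for Thbs1 and 0.058 to 0.0967 without PBS replicates 1 or 3 or long-term replicate 1 for Tgfbr1.

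Endothelial genes fell together. Of 26 listed, 25 were tested, 20 fell and none rose (median -0.50), or 9 with all 3 groups in the fit. Pecam1, the junction protein that marks endothelium, was at 435, 414 and 444 TPM with PBS and 291, 304 and 317 TPM after PM2.5 (-0.50 ± 0.07, adjusted p = 0.00115). Sox17, a factor of arterial endothelium, fell (-0.79 ± 0.14) and so did Plvap, of fenestrated and larger vessels (-0.54 ± 0.12). The tested members lay between -0.79 and -0.10. TPM is a share of the library, and in the same libraries the macrophage, mucus and secreted defence lists gained and haemoglobin transcripts lost. The number of endothelial genes that fell was 21 with median-ratio scaling, 22 with quantile normalization and 24 with length and GC correction. Beyond these alternatives, the part of the gains and losses of other lists in the decreases was not tested.

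**Figure D4:**
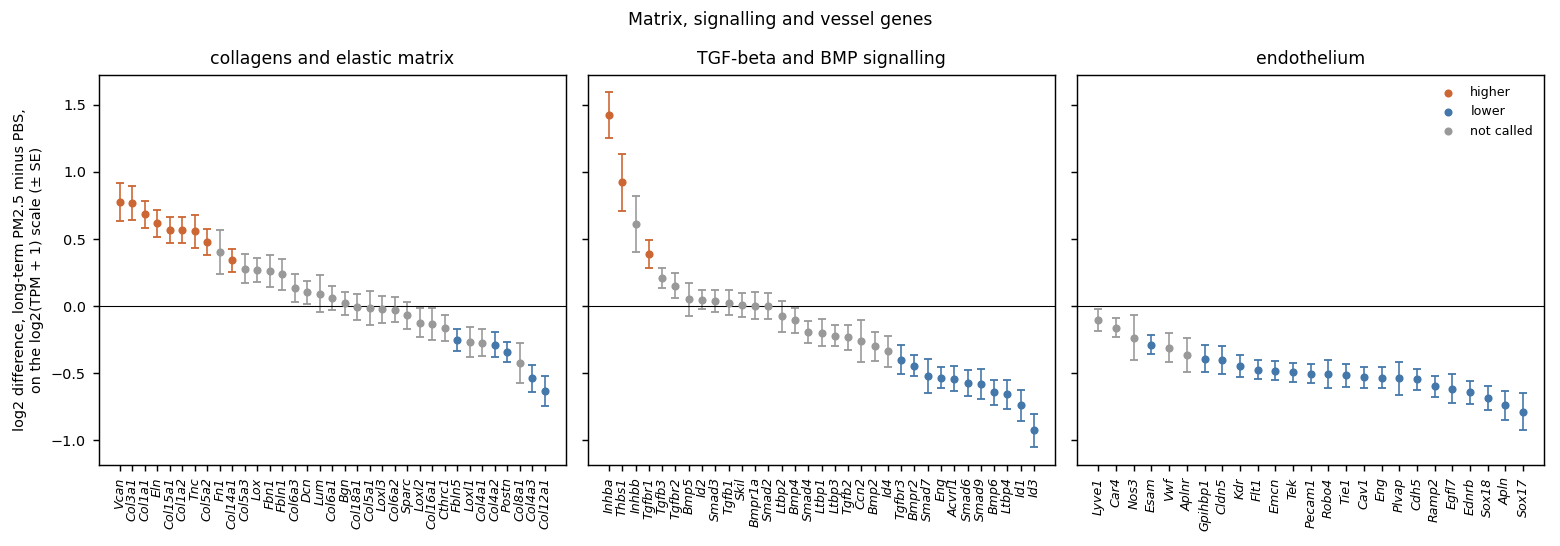
Points are the log2 difference, long-term PM2.5 minus PBS, of each tested gene of the matrix, TGF-beta and BMP, and endothelial lists, with bars for 1 SE, coloured by call. The matrix genes lie on both sides of 0, Inhba is the highest and Id3 the lowest of the middle panel, and all endothelial genes lie below 0.

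Stromal markers fell in part. Of 20 lung fibroblast genes, all tested, 9 fell and 4 rose (45% and 20%, against 9.95% and 17.8% of all tested genes). With all 3 groups in the fit 3 fell and 1 rose. Those that rose were Plin2, Mfap5, Col14a1 and Mfap4, and the median was -0.30. Tcf21, a factor of lipofibroblasts, fell from 452, 299 and 399.7 TPM to 223, 234 and 248 TPM (-0.68 ± 0.14, adjusted p = 0.00556), as did Inmt (-0.61 ± 0.11). Of 16 tested smooth muscle and pericyte genes 7 fell and 2 rose (43.8% and 12.5%), or 2 and none with all 3 groups. Kcnj8 and Actg2 were those that rose, and the median was -0.27. Acta2, the actin of smooth muscle and myofibroblasts, was at 128, 115 and 134 TPM and 114, 122 and 126 TPM and was not called (-0.06 ± 0.08, adjusted p = 0.628). Pdgfrb, the pericyte receptor, fell (-0.41 ± 0.07). Of the genes that rose in these lists, Col14a1 had an adjusted p of 0.0503 to 0.0771 without PBS replicate 1 or long-term replicates 1 or 2, Mfap4 one of 0.0737 to 0.104 without PBS replicate 3 or long-term replicates 1 or 3 and Kcnj8 one of 0.106 to 0.169 without PBS replicates 1 or 2 or long-term replicates 1 or 2. Mesothelial markers fell in 5 of 7 tested genes (71.4%, against 9.95% of all tested genes, median -0.43), or 1 with all 3 groups.

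Markers of blood and of heart muscle also differed between the groups. Haemoglobin transcripts took 5.0 to 7.53% of the PBS libraries and 1.79 to 3.0% of the long-term libraries. Hba-a1 fell from 35427, 48087 and 23203 TPM to 8254, 12435 and 13958 TPM (-1.60 ± 0.28, adjusted p = 0.00317, or 0.0572 with quantile normalization), with reads that the near copy Hba-a2 may share. Hba-a2 was not called (adjusted p = 0.142, but 0.0387 with the replicate number as a block). Its difference lay between -0.82 and -0.13 over the alternatives. The part of shared reads in the fall of Hba-a1 was not tested. Of 10 tested red cell genes 7 fell (median -0.91) and of 9 tested platelet genes none changed (median -0.05). Of 13 tested heart muscle genes 8 fell (median -0.66), or 5 with all 3 groups. Myh6 was at 207, 124 and 239.8 TPM and 81.3, 121 and 98.9 TPM (-0.88 ± 0.23, adjusted p = 0.018; 0.0678 to 0.0889 without PBS replicate 1 or long-term replicate 1).

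Alb, the defining transcript of liver, was close to 0 in both groups. It was at 0.31, 0.49 and 0.63 TPM with PBS and 0.2, 0.15 and 0.34 TPM after PM2.5. The 11 liver genes below the filter, which are low by that choice, reached at most 0.63 TPM in a PBS and 3.19 TPM in a treated library. The summed liver list, tested or not, was at 338 to 349 TPM with PBS and 446 to 507 TPM after PM2.5. Of the 8 tested members 2 rose and 4 fell (25% and 50%, against 17.8% and 9.95% of all tested genes). Trf (0.81 ± 0.08) and Fgg (1.07 ± 0.28) rose, and Hamp, Pon1, Asgr1 and Fabp1 fell. The adjusted p of Fgg was 0.0543 to 0.0645 without PBS replicates 1 or 3 and that of Fabp1 0.0549 to 0.0686 without PBS replicate 1 or long-term replicate 1. Of 11 tested fat tissue genes 1 rose and 2 fell (9.09% and 18.2%, against 17.8% and 9.95% of all tested genes), with a median of -0.41. Lpl (1.08 ± 0.13), which macrophages share, rose, and Plin1 and Retn fell. The adjusted p of Plin1 was 0.0506 to 0.164 without PBS replicates 1 or 3 or long-term replicates 1 or 2. That of Retn was 0.0683 to 0.136 without PBS replicate 3 or long-term replicates 1 or 2. Of 6 tested skeletal muscle genes Tnni2 rose (16.7%, near the 17.8% of all tested genes) and Ckm and Mb fell (33.3%, against 9.95%). The adjusted p of Mb was 0.054 to 0.0556 without long-term replicates 1 or 2. Of 9 tested nerve and neuroendocrine genes S100b and Calca rose (22.2%, near the 17.8% of all tested genes). The adjusted p of Calca was 0.0597 to 0.103 without PBS replicates 1, 2 or 3 or long-term replicates 1 or 2. Of 5 tested thymus and lymph node genes Ccl21a fell (20%, against 9.95% of all tested genes), a share that rests on 1 gene. The part of tissue sampling in the results above was not tested.

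**Figure D5:**
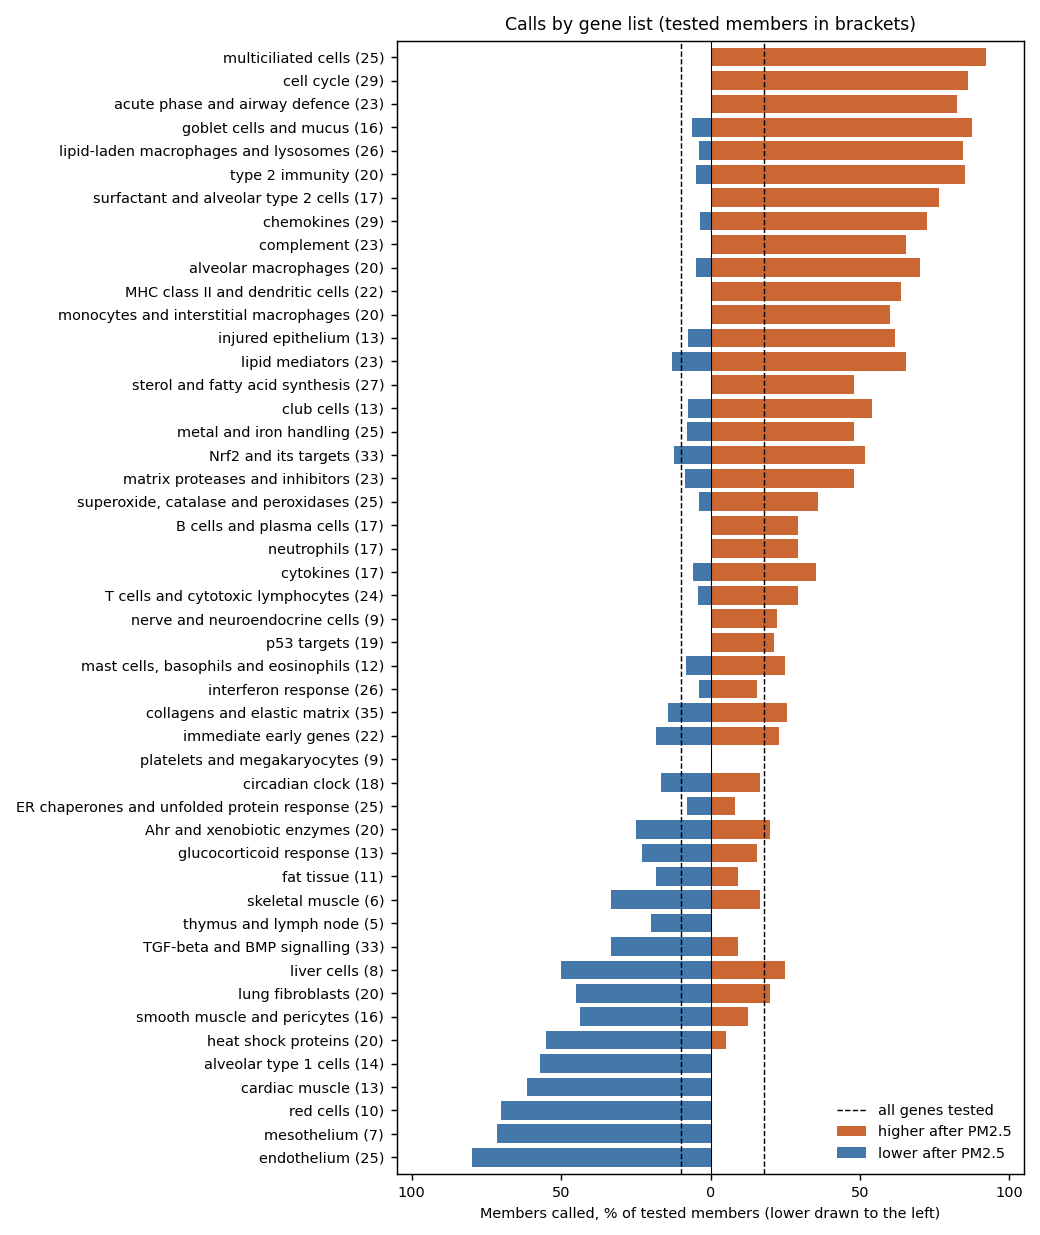
Bars give the share of the tested members of each list that rose (right) or fell (left), in percent, with the number tested in brackets, and dashed lines mark the 17.8% and 9.95% of all tested genes. The lists are ordered by the share that rose minus the share that fell, which puts multiciliated, cell cycle and acute phase genes at the top and endothelial, red cell, mesothelial and heart muscle genes at the bottom.

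The 3 libraries of mice given PM2.5 1 time are set beside these values as a description, since they share the PBS controls and no test was made here. Retnla was at 5017, 5672 and 5575 TPM in them, just below its values after 6 doses. Clca1 was at 0.3, 1.53 and 0.38 TPM and Mcidas at 0.45, 0.51 and 0.61 TPM, near their levels with PBS. Saa3, in contrast, was at 11073, 7458 and 6515 TPM and Mt2 at 1083, 1408 and 1016 TPM, above all 3 long-term libraries. Hspa1a was at 15.6, 12.8 and 18.6 TPM, below all 3. The excess of long over short transcripts lay between -1.23 and -0.6 log2 in these libraries, well outside the range of the other 6.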

How the data were processed

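The deposited table gave TPM per gene for 9 whole-lung libraries, which the authors made with oligo(dT)-enriched RNA, per the labels' protocols. The submitters' processing notes name HISAT2, Bowtie2, RSEM and DESeq2 without roles or versions, and the build GRCm38.p6 for 8 of the 9 samples. TPM has the same sum in each library, so read depth is unknown and no count test was possible. Groups came from the labels. Only the 3 PBS and 3 long-term libraries entered the test, with genes of at least 1 TPM in at least 3 of the 6. Log2(TPM + 1) was fitted with limma 3.58.1 (R 4.3.3) using eBayes with an intensity trend, two-sided, with Benjamini-Hochberg adjustment over 13866 genes and a threshold of 0.05.

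The comparison, the 48 gene lists, the choice of libraries in the fit and the alternatives were chosen with earlier results of these data known. The alternatives changed the pseudocount to 0.1, the filter to none or to a mean of 5 TPM, the scaling to median ratios, to quantiles or to values freed of each library's trend with length and GC (splines with 5 degrees of freedom, GENCODE M21 transcripts), and the model to one with all 3 groups, with a block for the replicate number, without the intensity trend or with robust variances. Each of the 6 libraries was also left out in turn. The fit was tested on simulated data.

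Genes were named by a rule. Among changed genes whose groups did not overlap, leaving out predicted, pseudogene and antigen receptor names, it took the 10 largest rises and falls in log2 and in TPM, genes at most 0.5 TPM in every library of one group and at least 5 TPM in every library of the other, up to 5 members per list with the largest difference, and a set of particle response genes in any case. Members that moved against their list, called members of lists with few calls, members named as not called, Muc5b, Spdef and the chromosome 14 genes were named after their values were seen. Some genes are not reported here and were left out of the lists and their counts.

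Promoters came from RefSeq (GRCm38.p6). They covered 250 bases before a start and were matched by gene identifier for 11043 of 13866 tested genes. Motifs were searched on both strands, counting a gene with a match in at least 1 window. The promoters shown were chosen after the matches were seen.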

Additional observations from a re-analysis of the deposited data

How the results depend on the processing

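The counts of changed genes moved by more than 1.5 times under 3 alternatives and on leaving out 1 library. The number that fell was 2574 with quantile normalization, 3158 with length and GC correction and 242 with all 3 groups in the fit, where 1321 rose. Leaving out single libraries gave 1896 to 2348 rising and 734 to 1637 falling genes, the fewest of both without PBS replicate 1. The cause was not tested. With the replicate number as a block 1986 genes rose and 923 fell. Same-numbered libraries of the 2 groups did not deviate together (r = -0.22, -0.29 and -0.28), no library correlated best with its own number, and the labels give the numbers no shared source, so they were not taken to pair the libraries. The filter at a mean of 5 TPM left out some named genes, such as Muc5ac, so some calls were tested under fewer alternatives. Of the 212 named genes that changed, 127 kept their call under every alternative that tested them, and all kept their direction. With all 3 groups in the fit 77 of the 212 lost it, among them Actg2, Aldh1a7, Bmpr2, Col12a1, Col4a3, Dnajb9, Ephx1, Gata2, Hspa4l, Jchain, Klf4, Lpl, Mfap5, Nr4a2, Pdia6, Perp, Rtkn2, Scgb3a2, Slc30a1 and Timp3, which no omission of 1 library took out. Hba-a1 also lost its call with quantile normalization and Actg2 with length and GC correction, and Oas1a with robust variances. Signs changed only in genes that had not been called. With length and GC correction the difference was -0.12 for Cd79a, -0.0495 for Hspa5, -0.0182 for Mcm4, -0.0371 for S100a8, -0.10 for Scgb1a1 and -0.0785 for Sftpc. Over the omissions of 1 library it lay between -0.23 and 0.18 for Cd79a, -1.89 and 0.28 for Ear6, -0.0142 and 0.10 for Hspa5, -0.19 and 0.40 for S100a8, -0.33 and 0.0896 for S100a9, -0.0264 and 0.14 for Scgb1a1 and -0.0237 and 0.12 for Tgfb1. A list count falls at a mean TPM of at least 5 where fewer of its members are tested. TPM holds no depth, so counting error cannot be given.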

Other observations

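A few genes split the libraries across the groups rather than between them. Of the tested genes, 6 were above 3 TPM in PBS replicates 1 and 2 and in long-term replicate 3, with the other 3 libraries all below 0.3 of the lowest of these values. The 4 with gene names are ribonuclease genes of the eosinophil-associated and angiogenin families, which have close copies among which reads may be shared. Ang4 (chr14:51763892-51773590, GRCm38.p6) was at 8.3, 9.12 and 0 TPM with PBS and 0, 0 and 13.6 TPM after long-term PM2.5. Ang5 (chr14:43957069-43963080) was at 12.5, 11.1 and 0 TPM and 0, 0 and 15.4 TPM, and Ear10 (chr14:43922898-43923596) at 12.3, 12.8 and 0 TPM and 0, 0.3 and 21.1 TPM. Ear6 (chr14:51853768-51854643) was at 17.5, 18.7 and 0.92 TPM and 1.78, 1.07 and 40.9 TPM. All 3 short-term libraries were like the low ones, with Ang4, Ang5 and Ear10 listed at 0 in each and Ear6 at 1.28, 2.61 and 0.62 TPM. None of the 4 was called, since each group holds libraries of both kinds. The pattern was noticed in these data and was not tested, nor was it tested whether the animals, all labelled BALB/c, were of 1 genetic source.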
